A study of Rattus norvegicus with 4 samples.

Results

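Messenger RNA of whole neuron-astrocyte co-culture was set against that of astrocytes grown alone, both labelled with Cy5 on Agilent whole rat genome arrays. CC was an untreated co-culture of cortical astrocytes from Wistar rat pups of postnatal day 1 and hippocampal neurons from mouse embryos of embryonic day 18, which had been plated on the astrocytes. AA-CJ was the same kind of rat astrocyte monolayer without neurons, kept in like conditions and rinsed with a forceful stream of ice-cold saline (cold jet) before harvest. CC had 2 arrays (replicates 1 and 2) and AA-CJ had 2 arrays, and on all 4 the Cy3 channel held co-culture after cold jet (CC-CJ). Each array replicate came from a different pool of animals. For each probe, log2 CC over AA-CJ was the mean log2 of Cy3 over Cy5 on the AA-CJ arrays minus that on the CC arrays, so that the CC-CJ reference cancelled. Of 41012 probes that were no control spots, 24857 were kept, those with signal well above background in all hybridisations of 1 or more of the RNAs. They stood for 21313 of the 35655 genes or transcripts that the array names.

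The design carries limits that touch every value below. AA-CJ received cold jet and CC did not, so that the presence of neurons and the rinse cannot be told apart in this comparison. In bulk RNA, fewer cells of a type and less RNA per cell cannot be told apart either. The probes were designed for rat, whereas the neurons came from mouse, and the part of probe mismatch in the results was not tested. The slide was the same for all arrays. In Cy5, the share of probes well above background was 56.2% and 58.5% for AA-CJ against 62.5% and 62.6% for CC. Across probes, Cy5 levels correlated at 0.992 within AA-CJ, 0.993 within CC and 0.978 to 0.984 between them. Here and below, a Cy5 level is the log2 intensity after normalization, and it is compared only between arrays for the same genes. The fitted difference comes from the ratios against CC-CJ and need not equal the difference of the levels.

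Neurons are recognized by a microtubule-rich cytoskeleton, by vesicles that release transmitter at synapses, and by ion channels and receptors that carry electrical signals. Astrocytes take up transmitter, make sterols for neighbouring cells and secrete matrix and lipoproteins. A whole co-culture holds RNA of both, and any microglia or oligodendrocyte lineage cells that grew with them add their own.

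CC and AA-CJ differed in a strongly one-sided way. Under limma with Benjamini-Hochberg adjustment over 24857 probes, 662 probes passed an adjusted p of 0.05, which was 2.66% of those tested. Of these, 646 (2.6%) were higher in CC and 16 (0.0644%) were lower, so that 97.6% of the probes that passed were higher in CC. The share was 80.3% when the Cy5 channel was normalized alone, where 1073 probes were higher and 263 lower. The median log2 difference was 0.99 among higher probes and -0.72 among lower ones. Higher probes with at least a 2-fold difference numbered 318, and 1 lower probe reached it. Without CC replicate 2, 381 probes were higher and 24 lower, and without CC replicate 1 the counts were 514 and 101. Without AA-CJ replicate 1, 25 probes were lower, and without AA-CJ replicate 2, 46 were. Of the 16 lower probes, 1 to 7 were called again when an array was left out.

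Detection was one-sided too. Of the kept probes, 1211 were well above background on both CC arrays and on neither AA-CJ array, against 60 with the reverse pattern. Among the 646 higher probes, 119 had no signal well above background in AA-CJ. For these the difference is given as a bound, written as at least a fold, from the Cy5 levels. The bound sets the CC mean against, per AA-CJ array, the dimmest signal that counts as detected or the probe's own where higher. It does not come from the ratios that limma tested. It can exceed the fitted fold and is no lower limit of the fitted difference. Averaged over the probes of a gene, 547 of 21313 genes were higher (2.57%) and 17 lower (0.0798%). The ratios of the CC arrays lay wholly outside those of the AA-CJ arrays for 50.3% of all genes tested, so that separation of the arrays alone is common here.

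**Figure D1:**
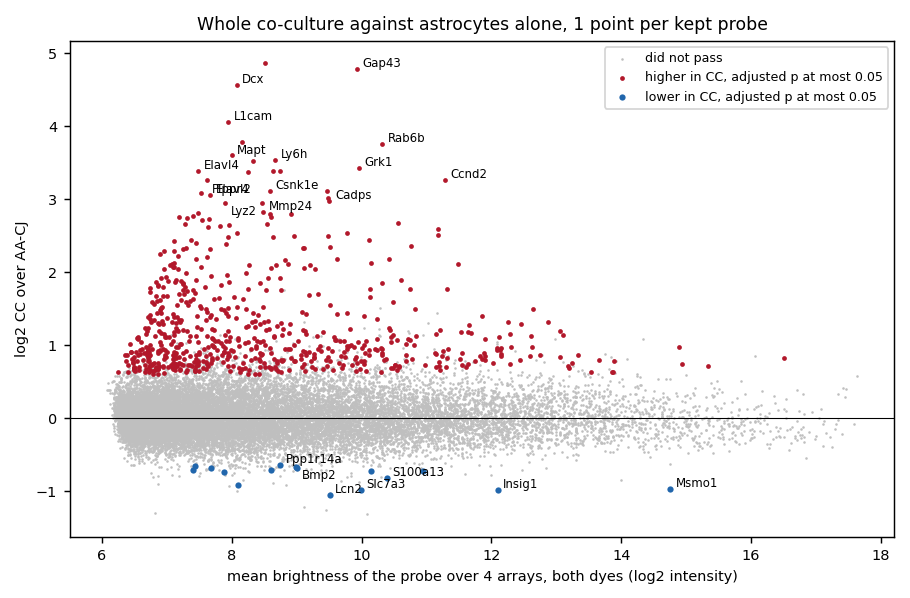
Each point is 1 of the 24857 kept probes, with its mean brightness over 4 arrays and both dyes on the x axis (log2 intensity) and log2 CC over AA-CJ on the y axis. Probes that passed an adjusted p of 0.05 are red (646 higher in CC) or blue (16 lower), and the red points reach far higher than the blue points reach down. The unlabelled point at the top (4.87) is a probe for a transcript without a gene symbol.

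Gap43, Dcx and L1cam were the named genes with the largest differences. Gap43, a growth cone protein that couples calcium signals to actin, had Cy5 levels of 12.56 and 12.63 in CC and of 7.66 and 7.69 in AA-CJ. The CC arrays stood far above both AA-CJ arrays, and Gap43 was higher by 4.79 on the log2 scale (SE 0.123, limma adjusted p = 7.71e-05, n = 2 arrays per group). Its probe lies on chromosome 11 at 60083891 to 60083950 of build rn4. Dcx, the microtubule-binding doublecortin of migrating young neurons, had levels of 11.34 on both CC arrays and of 6.14 and 6.31 in AA-CJ, where it was not well above background. By these levels Dcx was at least 34.6-fold higher in CC, whereas its fitted fold was 23.8 (limma adjusted p = 0.000163). L1cam, an adhesion molecule of growing axons, had levels of 10.82 and 11.03 in CC and of 6.14 and 6.30 in AA-CJ. The L1cam probe was detected on 1 of the 2 AA-CJ arrays, and the difference was 4.07 (SE 0.157, limma adjusted p = 0.000163).

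Mapt, the microtubule-associated protein tau, was read by 2 probes, which differed by 3.60 and 3.40 between CC and AA-CJ. The RNA-binding protein Elavl4, which stabilizes neuronal transcripts, was at least 15.1-fold higher by its levels, with a fitted fold of 10.5. Its relative Elavl2 rose through 2 probes, 1 that gave 3.06 and 1 not detected in AA-CJ that was at least 7.41-fold higher. Plppr4, a lipid phosphatase-related membrane protein of neurons, was at least 13.6-fold higher in CC by its levels, with a fitted fold of 9.60. Cadps, which primes dense core vesicles for release, rose by 2.98 (SE 0.117), with levels of 11.10 and 11.15 in CC and of 8.06 and 8.14 in AA-CJ. Separation of the groups of arrays was a condition for a gene to be ranked here, so that it is no result.

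Ccnd2, cyclin D2 of the cell cycle, rose by 3.26 (SE 0.117), from 8.89 and 9.07 in AA-CJ to 12.14 and 12.41 in CC. Ly6h, a membrane-anchored protein that binds nicotinic receptors, rose by 3.54 (SE 0.134). Grk1, known as the kinase of rhodopsin in the retina, rose by 3.44 (SE 0.152), from 7.78 and 7.95 to 11.30 and 11.38. The metalloprotease Mmp24 rose by 2.83 (SE 0.142). The vesicle transport GTPase Rab6b and the circadian kinase Csnk1e rose as well, although their probes differed in size. The 2 probes of Rab6b gave 3.76 and 1.18, and those of Csnk1e gave 3.12 and 1.14.

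**Figure D2:**
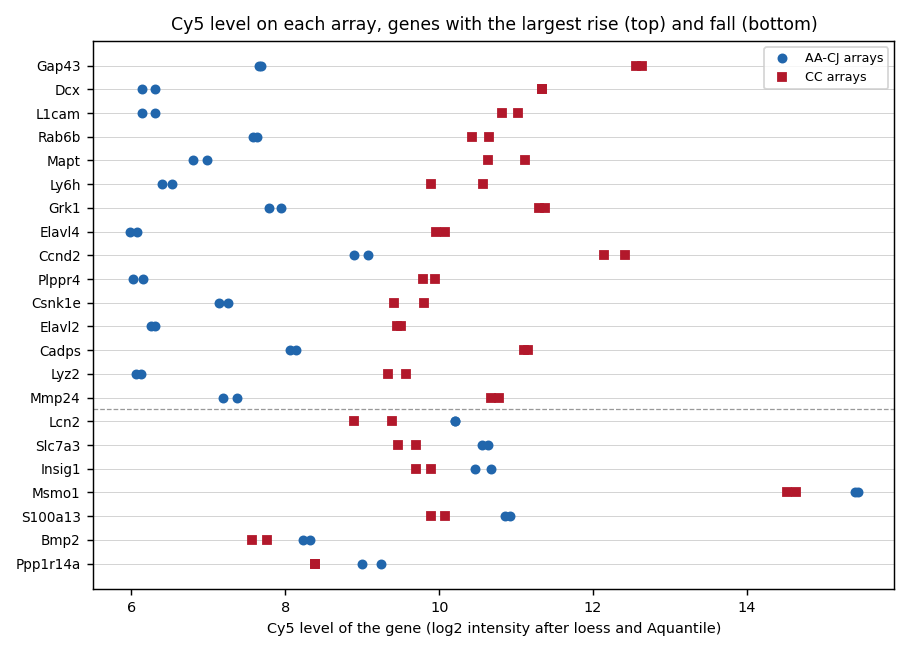
Cy5 level on each array (x axis, log2 intensity after loess and Aquantile, averaged over the probes of a gene) for the 15 genes with the largest rise by their top probe, above the dashed line, and the 7 lower ones, below it, of which Bmp2 passed by 1 probe and not as a gene. Squares are the 2 CC arrays and circles the 2 AA-CJ arrays. The arrays of CC lie to the right of both AA-CJ arrays for the 15 genes and to the left for the 7, and the Gap43 arrays of AA-CJ coincide. Separation of the ratios of the arrays was a condition of this ranking.

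Many genes of 7 lists of neuronal function were higher in CC. Of 133 tested members of these lists, 48 rose (36.1%), none fell, and 85 did not pass, against 2.57% of all genes higher. At an unadjusted p of 0.05 in limma, 86 were higher and 1 was lower. Over all 24857 probes, 2855 were higher and 1475 lower at this threshold. These are probes and the list counts are genes, so that they are only a rough background for such counts here and below. The median log2 difference of the 133 list genes was 0.49, against 0.00 for all genes tested, and 122 of 133 lay above 0. The median was 0.48 when genes with only a bound in AA-CJ were put at that bound wherever it was below their fitted value. Where the bound was above, the fitted value was kept. The mean Cy5 level over the 133 genes was 8.18 and 8.28 on the CC arrays and 7.20 and 7.25 on the AA-CJ arrays. Of the 177 listed genes, 171 had a probe on the array and 133 passed the filter on dim probes, 39 of them by their signal in CC without any in AA-CJ, so that the filter favours members high in CC. Over the 171 members with no filter, 48 rose (28.1%, against 1.5% of all genes), and the median was 0.27. The lists are not independent of each other or of earlier results of these data, so that these counts are a description.

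Among 22 tested genes of the neuronal cytoskeleton and growth cone, 9 rose, and the list median was 0.66. Besides Gap43, Dcx and Mapt these included Stmn3, a tubulin-binding stathmin (2.76, SE 0.175), and Tubb3, the neuronal tubulin (1.56, SE 0.119). The list also held genes that did not pass. Map2, a dendritic microtubule protein, gave 0.45 (adjusted p = 0.12), and Tubb2b gave 1.12 (adjusted p = 0.077). Stmn2, a growth cone stathmin, had levels of 12.65 and 12.51 in CC and of 12.88 and 12.97 in AA-CJ, so that this neuronal gene read as bright in the library of astrocytes alone as in co-culture (log2 difference -0.27, adjusted p = 0.33).

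Of 21 tested presynaptic genes, 6 rose, with a list median of 0.37. Snap25, a fusion protein of the vesicle release machinery, was at least 5.65-fold higher and Syn2, which tethers vesicles, at least 6.11-fold higher. Genes of the inhibitory transmitter GABA were among the 6. Slc32a1, which fills vesicles with GABA, rose by 1.71 (SE 0.177), and Gad2, which makes GABA, was at least 2.49-fold higher. Slc17a6, which fills vesicles with glutamate, gave 0.54 (adjusted p = 0.066), and the calcium sensor Syt1 gave 0.19 (adjusted p = 0.58).

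Of 21 tested receptor and scaffold genes, 6 rose with a list median of 0.43, among them the NMDA receptor subunit Grin1 (1.35, SE 0.112). The AMPA receptor subunit Gria4 passed as the mean of 2 probes that disagreed, since 1 gave 0.06 (adjusted p = 0.86) and the other, not detected in AA-CJ, at least 3.31-fold. The muscarinic receptor Chrm3 was at least 4.75-fold higher. Camk2b, a calcium-dependent kinase of the postsynaptic density, rested on 2 probes that gave 2.44 and, for the probe not detected in AA-CJ, at least 1.55-fold with an adjusted p of 0.18. Of 11 tested voltage-gated channel genes, 1 rose, the potassium channel Kcna1, which was at least 3.43-fold higher. The sodium channel gene Scn2a gave 0.52 (adjusted p = 0.11).

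Neuronal transcription factors and RNA-binding proteins had the highest list median, at 1.22, with 9 of 17 tested genes higher. Myt1l, a zinc finger factor of neuronal identity, was at least 6.18-fold higher, and Rbfox3, the splicing factor known as NeuN, at least 5.63-fold higher. The splicing regulator Celf4 rose by 2.49 (SE 0.127). Neurod2, a factor of excitatory neurons, rose by 1.76 (SE 0.153) and was detected on 1 of the 2 AA-CJ arrays. Bcl11b, a factor of projection neurons, passed as the mean of 2 probes that disagreed, since 1 gave at least 10.3-fold and the other showed no rise (adjusted p = 0.60). Dlx1, a factor of inhibitory neurons, gave -0.47 (adjusted p = 0.25).

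Of 18 tested genes for neuropeptides and dense core vesicles, 10 rose, with a list median of 0.93. Reln, a secreted guidance protein of some inhibitory neurons, was at least 6.11-fold higher, and Grp, gastrin-releasing peptide, at least 4.61-fold higher. Npy, neuropeptide Y, rose by 1.77 (SE 0.134), from 7.02 and 7.14 in AA-CJ to 9.05 and 9.04 in CC. Cck, cholecystokinin, rose by 1.51 (SE 0.120). Vgf, a secreted precursor protein induced by neurotrophins, rose by 2.50 (SE 0.285), and the granule protein Chgb by 2.50 (SE 0.314). Both had AA-CJ arrays that stood apart, at 8.02 and 8.72 for Vgf and at 7.40 and 8.37 for Chgb. Sst, somatostatin, had levels of 10.40 and 10.51 in CC and of 9.08 and 7.29 in AA-CJ, and with this spread its difference of 1.75 (SE 0.667) did not pass (adjusted p = 0.24). The secretogranin gene Scg2 gave 0.13 (adjusted p = 0.70).

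Promoters were searched for several runs of letters in several gene sets, so that the shares given here are a selection. Among them was the cAMP response element, the site through which calcium and cAMP signals act on neuropeptide genes. The palindrome TGACGTCA, read on both strands of the RefSeq window of 300 bases around the gene start (build GRCr8), lay in 3 of the 13 tested list genes with a window (23.1%), against 1.91% of 27457 windows. The 3 genes were Vgf, Sst and Scg2. Over all tested neuronal list genes it lay in 6 of 87, and among those higher in CC in 2 of 34, Vgf and the neuronal transcription factor Neurod6. The 250 bases before the start of Vgf and Neurod6, which rose, and of Scg2, which did not pass, are shown because they carry TGACGTCA and differ in value. Capitals mark the site. Vgf lies at chr12:25277021-25277270, Neurod6 at chr4:86180156-86180405 and Scg2 at chr9:88256867-88257116, all on the minus strand.
Vgf: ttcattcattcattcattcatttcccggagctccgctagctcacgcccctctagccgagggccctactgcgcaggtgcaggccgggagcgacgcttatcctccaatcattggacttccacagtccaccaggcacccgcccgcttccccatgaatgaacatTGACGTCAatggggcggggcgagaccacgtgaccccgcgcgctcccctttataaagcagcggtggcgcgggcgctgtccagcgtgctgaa
Neurod6: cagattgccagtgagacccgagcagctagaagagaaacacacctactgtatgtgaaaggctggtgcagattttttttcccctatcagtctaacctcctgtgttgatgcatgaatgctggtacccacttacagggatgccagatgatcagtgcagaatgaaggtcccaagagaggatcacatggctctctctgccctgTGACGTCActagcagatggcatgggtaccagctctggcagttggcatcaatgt
Scg2: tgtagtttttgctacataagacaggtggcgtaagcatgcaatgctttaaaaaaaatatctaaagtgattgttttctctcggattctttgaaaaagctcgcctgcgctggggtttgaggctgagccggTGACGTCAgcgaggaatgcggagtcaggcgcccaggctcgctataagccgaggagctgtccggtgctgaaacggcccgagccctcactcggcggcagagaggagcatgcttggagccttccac

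Vgf carried the site 82 bases before its start, Neurod6 45 bases and Scg2 115 bases. Neurod6 was at least 2.87-fold higher in CC. These are rat windows, whereas the neurons came from mouse, and a match is a run of letters and no measurement of binding.

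Of 23 tested genes for neuronal adhesion and guidance, 7 rose, with a list median of 0.36. Cntn1, an axonal contactin, was at least 4.51-fold higher. Pcdh10, a protocadherin of cell contacts, rose by 1.42 (SE 0.120), and Ntm, a neurite adhesion protein, by 1.11 (SE 0.131). Ncam1, an adhesion molecule shared by neurons and glia, gave -0.06 (adjusted p = 0.84).

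**Figure D3:**
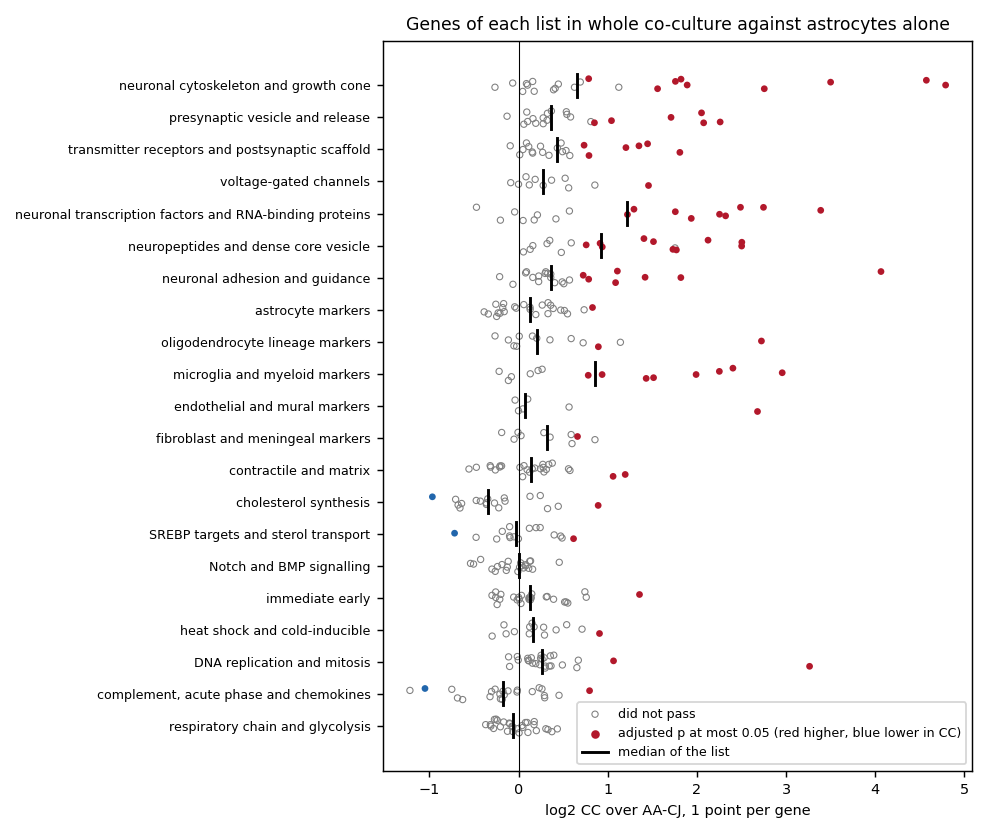
Log2 CC over AA-CJ (x axis) for each tested gene of 21 gene lists (rows). Filled points passed an adjusted p of 0.05, red higher and blue lower in CC, open points did not pass, and the black bar is the list median. The neuronal lists at the top and the microglia list hold most red points, whereas cholesterol synthesis lies to the left, with a median of -0.35.

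Markers of astrocytes were near equal in both RNAs. Of 25 tested markers, 1 rose, none fell (6 and 1 at an unadjusted p of 0.05 in limma), and the list median was 0.13. The one that rose was Apoe, the main lipoprotein of astrocytes and also made by microglia, with levels of 16.45 and 16.64 in CC and of 16.02 and 16.01 in AA-CJ (log2 difference 0.83, SE 0.132, limma adjusted p = 0.0271). The call of Apoe was lost under 8 of 16 alternatives. The glutamate transporter Slc1a2 gave 0.73 (adjusted p = 0.14), and Fabp7, a fatty acid binding protein of radial glia and astrocytes, gave 0.51 (adjusted p = 0.076). Gfap, the astrocyte filament protein, gave -0.34 with an SE of 0.258. The mean Cy5 level over the 25 markers was 11.48 and 11.68 on the CC arrays and 11.44 and 11.49 on the AA-CJ arrays. Of the 25 markers, 24 were well above background on both AA-CJ arrays. The 10 tested fibroblast and meningeal genes were as well, so that such detection was not particular to astrocyte markers.

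Microglia markers were higher in CC as well. Of 14 tested genes, 8 rose (57.1%, against 2.57% of all genes), none fell (also none at an unadjusted p of 0.05 in limma), and the list median was 0.86. Over the 20 markers on the array with no filter on dim probes, 7 rose (35%, against 1.5% of all genes) and the median was 0.17. Lyz2, the lysozyme of phagocytes, had levels of 9.33 and 9.56 in CC and of 6.13 and 6.06 in AA-CJ. By these levels it was at least 9.84-fold higher, and its fitted fold was 7.77. Trem2, a lipid receptor of microglia, was at least 6.58-fold higher. The 2 probes of C1qa, a chain of complement C1q, gave at least 7.89-fold and at least 4.62-fold. Laptm5, a lysosomal protein of immune cells, rose by 1.99 (SE 0.154), the adaptor Tyrobp by 1.51 (SE 0.112) and C1qb by 1.43 (SE 0.164). The protease Ctss rose by 0.94 (SE 0.118), and Aif1, known as Iba1, was at least 1.75-fold higher.

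The other 6 tested markers did not pass. The growth factor receptor Csf1r gave 0.26, the lysosomal protein Cd68 gave 0.22 and C1qc gave 0.13. The endotoxin receptor subunit Cd14 gave -0.22, the invariant chain Cd74 gave -0.11 and the microglial membrane protein Tmem119 gave -0.08. The defining genes Itgam, Cx3cr1, P2ry12 and Spi1 did not pass the filter on dim probes, and no probe was matched to Ptprc. The mean level over the 14 genes was 8.10 and 8.09 on the CC arrays and 6.91 and 6.95 on the AA-CJ arrays, and 8 of the 14 were well above background on both AA-CJ arrays. Microglia markers thus moved with the same contrast as the neuronal genes, and their part in other differences was not tested.

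Of 13 tested genes of the oligodendrocyte lineage, 2 rose (15.4%), with a list median of 0.20, and 5 were higher and none lower at an unadjusted p of 0.05 in limma. Bcas1, a marker of newly forming oligodendrocytes, was at least 8.91-fold higher, with CC arrays at 8.70 and 9.85, and Mag, a myelin adhesion protein, was at least 2.28-fold higher. Sox10, which defines the lineage, gave 1.14 (adjusted p = 0.090), and Olig2 was not among the kept genes. Mean levels over this list were 7.89 and 8.20 in CC and 7.51 and 7.57 in AA-CJ. Of 6 tested endothelial and mural genes, 1 rose. It was Kdr, the receptor VEGFR2, with levels of 9.34 on both CC arrays and of 6.43 and 6.53 in AA-CJ (log2 difference 2.67, SE 0.114, limma adjusted p = 0.000163).

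Pecam1, Cldn5, Tek, Tie1 and Flt1, which define endothelium, did not pass the filter on dim probes, and Cdh5 gave 0.10 (adjusted p = 0.68). Rgs5, a regulator of G protein signals in pericytes, gave 0.57 and did not pass (adjusted p = 0.058). The mean level of the 6 endothelial and mural genes was 7.94 and 7.90 in CC and 7.32 and 7.46 in AA-CJ. Of 10 tested fibroblast and meningeal genes, 1 rose, the matrix proteoglycan Dcn (0.66, SE 0.118, limma adjusted p = 0.0418), which lost its call under 10 of 16 alternatives. The list median was 0.32, 5 genes were higher and none lower at an unadjusted p of 0.05 in limma, and the list means were 11.35 and 11.37 against 11.20 and 11.05.

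Of 26 tested contractile and matrix genes, 2 rose (7.69%). Both encode chondroitin sulfate proteoglycans, Vcan (1.06, SE 0.148) and Cspg5 (1.20, SE 0.203), and the call of Cspg5 was lost under 5 of 16 alternatives. The proteoglycans Bcan and Ncan of the same list gave 0.10 and -0.21, and neither passed. Reck, a membrane inhibitor of metalloproteases, gave 0.56 and the matrix protein Fn1 gave 0.58, and neither passed (adjusted p = 0.065 and 0.057). Of 26 tested genes of DNA replication and mitosis, 2 rose, Ccnd2 and the mitotic activator Cdc20 (1.06, SE 0.199), whose call was lost under 8 of 16 alternatives. The list median was 0.26. Ccnd1 and Ccnd3, the other D-type cyclins, gave 0.34 (adjusted p = 0.23) and 0.10 (adjusted p = 0.71).

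The genes lower in CC were few and their differences small. Lcn2, a secreted iron-carrier protein of reactive astrocytes, had levels of 9.38 and 8.89 in CC and of 10.20 and 10.21 in AA-CJ, and fell by 1.05 on the log2 scale (SE 0.171, limma adjusted p = 0.0295). Slc7a3, a transporter of cationic amino acids, fell by 0.98 (SE 0.120), from 10.64 and 10.56 to 9.70 and 9.46. S100a13, a calcium-binding protein of a secretion pathway, fell by 0.82 (SE 0.120), and Ppp1r14a, an inhibitor of myosin phosphatase, by 0.64 (SE 0.118). Of 16 alternatives, Lcn2 and S100a13 lost their calls under 5 each and Ppp1r14a under 10. Bmp2, a growth factor of the TGF-beta family, had 1 probe that passed (-0.67, adjusted p = 0.0499) and 1 that did not (-0.19), and as a gene it did not pass (-0.43, adjusted p = 0.13).

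Of 19 tested genes of cholesterol synthesis, 1 fell, the methylsterol oxidase Msmo1 (-0.97, SE 0.146), and 1 rose, the decarboxylase Mvd (0.89, SE 0.165), while the list median was -0.35. At an unadjusted p of 0.05 in limma, 3 were higher and 7 lower. Of 16 SREBP targets and sterol transport genes, the sterol sensor partner Insig1 fell by 0.72 (SE 0.118), as 3 of its 4 probes did, and the fatty acid elongase Elovl6 rose by 0.62 (SE 0.115). Of 16 alternatives, Mvd lost its call under 10, Elovl6 under 11, Insig1 under 7 and Msmo1 under 3. Of 23 tested genes of complement, acute phase and chemokines, 1 fell, Lcn2, and 1 rose. Cfb, a factor of the alternative complement pathway, had the largest difference of this list, at -1.22, but an SE of 0.412, with AA-CJ arrays at 11.02 and 9.76, and it did not pass (adjusted p = 0.20).

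In other lists few genes or none passed. None of 22 Notch and BMP genes and none of 29 respiratory chain and glycolysis genes passed in limma, with list medians of 0.00 and -0.06. At an unadjusted p of 0.05 in limma, 1 Notch and BMP gene was higher and 4 were lower. Of the respiratory chain and glycolysis genes, 2 were higher and 4 lower. Over all 24857 probes, 2855 were higher and 1475 lower at that threshold. Of 28 immediate early genes, 1 rose, Nr4a3, an orphan nuclear receptor, through 1 of its 2 probes (2.33 against 0.38). Of 14 heat shock and cold-inducible genes, 1 rose, the chaperone Hsp90aa1 (0.91, SE 0.114), and each of its 4 probes passed. Gapdh, a glycolysis enzyme, read 14.64 and 14.65 in CC and 14.60 and 14.64 in AA-CJ.

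Since CC-CJ was on every array, each difference is the exact sum of log2 CC-CJ over AA-CJ, which compares co-culture left after cold jet with astrocytes alone, and log2 CC over CC-CJ, which compares co-culture before and after cold jet. The parts share the CC-CJ channel and are set side by side as values only. The dyes were never swapped, so that a dye bias of a gene adds to 1 part and is taken from the other, and it cannot be told apart from a difference between the RNAs in either part. For the 48 neuronal list genes that rose, the first had a median of 0.20 (range -0.16 to 2.03) and the second a median of 1.498 (range -0.06 to 3.70). The second part was the larger for 44 of the 48 genes. As 20 of the 48 were not detected in AA-CJ, their first part is not measured. Over the other 28 the medians were 0.23 and 1.34, and the second part was the larger for 24. Mapt had 0.63 and 2.87, and Stmn3 had 0.12 and 2.63. Gap43 had 2.03 and 2.76, and its first part was the largest among the 48.

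For a few genes the difference lay almost wholly in the first part. Ccnd2 had 2.99 and 0.27, Kdr had 2.62 and 0.05, and Apoe had 0.90 and -0.08. Among the neuronal list genes, the 4 whose first part was the larger included Npy (1.28 and 0.49), Pcdh10 (1.19 and 0.23) and Cpe, a prohormone-processing enzyme (0.82 and -0.06). Ly6h had 2.45 and 1.09, and Grk1 had 2.46 and 0.97. Microglia genes had both parts, as in Laptm5 (0.75 and 1.24), Tyrobp (0.77 and 0.74) and C1qb (0.59 and 0.84).

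Other genes had parts of opposite sign. Fos, an activity-induced transcription factor, had 1.00 and -0.85 and gave 0.15 in CC over AA-CJ (adjusted p = 0.64). Thbs4, a matrix thrombospondin, had 0.96 and -0.94 and gave 0.02 (adjusted p = 0.97). On single arrays log2 of Cy3 over Cy5 was 0.82 to 1.096 for Thbs4 and 0.78 to 1.16 for Fos, with the ranges against AA-CJ and against CC overlapping, and the part of dye in it was not tested. Tm7sf2, a sterol reductase, had -1.13 and 0.49 and gave -0.64 (adjusted p = 0.065).

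**Figure D4:**
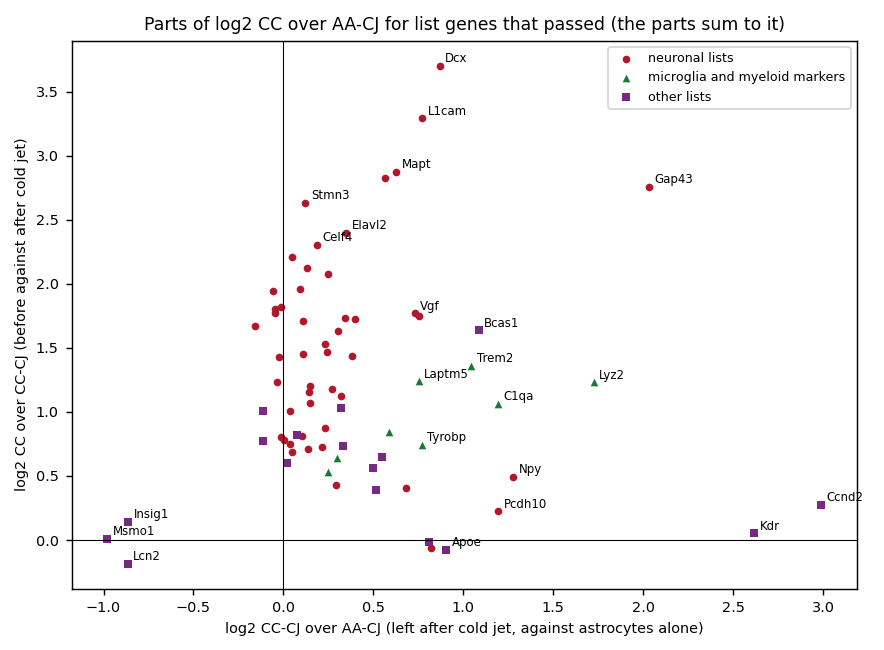
For each list gene that passed, log2 CC-CJ over AA-CJ (x axis) and log2 CC over CC-CJ (y axis), which sum to log2 CC over AA-CJ; genes not detected in AA-CJ are at their fitted values. Circles are genes of the neuronal lists, triangles microglia and myeloid markers and squares genes of other lists. Most circles lie high and near the vertical line, as Mapt at 0.63 and 2.87, whereas Ccnd2 and Kdr lie far right and near 0 on the y axis.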

How the data were processed

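RNA of CC and AA-CJ, each hybridised in Cy5 against CC-CJ in Cy3, was read on 4 arrays of 1 slide. The authors deposited spot intensities from Agilent Feature Extraction 9.5.1.1 (mean signal and local background on a linear scale, probe positions in build rn4) and its log10 ratio of Cy5 over Cy3. A table deposited by the authors gives their own processed ratios, whose scale and sign, set against Feature Extraction's, are those of log2 Cy5 over Cy3, normalized by OLIN and OSLIN (column medians of 0.0085 and 0.0043 for AA-CJ and of -0.0247 and -0.0141 for CC). All columns with values were mapped to a sample. RNA came from pools of wells and animals. The p-values rest on the spread of the array ratios, which holds differences between pools, the CC-CJ channel and the noise of each array. They also borrow from the spread of the other probes.

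In R 4.3.3 with limma 3.58.1, signals were corrected by normexp (offset 50) and M, the log2 of Cy3 over Cy5, was normalized by loess within each array (span 0.3). Control spots and 121 to 179 outlier spots per array were left out, and spots of a probe were averaged. Levels are Cy5 after loess and Aquantile. A coefficient for each pair of RNAs was fitted with lmFit on all 4 arrays (2 residual degrees of freedom, prior 5.01), and their contrast was moderated by eBayes. For a probe not well above background on either AA-CJ array, the bound sets the CC mean against, per array, the dimmest signal that counts as detected or the probe's own where higher, and such bounds are open to dye bias, as no dyes were swapped. Gene values are means over kept probes. Symbols came from the files, updated through RefSeq by accession for 10835 probes and by name for 8674, while 21543 had a placeholder or no match. The number of arrays limits the precision. On simulated data with 200 of 24857 probes changed by 1 on the log2 scale, 57.5% were recovered and 4.17% of calls were false. The simulation drew spreads from the fitted model with independent noise. Its false share therefore does not measure that of the calls reported here.

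Genes were named where they were among the 15 with the largest rise or fall by a passing probe (7 with a symbol fell), belonged to a gene list, or were named in the study's text. A ranked probe also had to be well above background on both arrays of the brighter group, with CC ratios beyond both AA-CJ ratios. Members and lists were chosen with earlier results of these data known, and no set test was run. Some list genes are counted but not reported here by name. Sequences are RefSeq windows of build GRCr8. Alternatives were other normalizations, background corrections, filters, priors, a replicate block and leaving out each array.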

Additional observations from a re-analysis of the deposited data

How the results depend on the processing

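Each of the 662 probes that passed kept its sign under every alternative run (501 of 501 present under the strictest filter). Only the other normalizations and background corrections could have changed a sign. Filters, prior and block leave the fitted difference of a probe as it is. The groups of arrays did not overlap for any of the 662 probes, so that leaving out an array cannot reverse it. None of 84 followed genes changed direction, while 43 kept their side of the threshold under every setting and 40 lost it under at least 1. Counts of higher and lower probes (646 and 16, 662 in all) became 1073 and 263 (1336 in all) for the Cy5 channel alone, 275 and 0 (275 in all, 3863 at an unadjusted p of 0.05 in limma) for Feature Extraction's log ratio, and 379 and 9 (388 in all) with both dyes required to be well above background throughout. Lower probes numbered 93 in the authors' table, 7 with an offset of 16 and 8 without background correction. With the replicate number as a block, 413 were higher and 8 lower (421 in all). The sample titles give only a number, and whether same-numbered arrays share a pool or a CC-CJ sample was not tested. Cy3 levels correlated at 0.998 between same-numbered arrays and at 0.996 to 0.997 between the others. The ratios of same-numbered arrays deviated with a correlation of -0.125. The crossed block, chosen after seeing the data, gave 804 higher and 71 lower. Leaving out each array gave 381 to 825 higher, 24 to 101 lower and 405 to 871 in all. The cause of these shifts was not tested, except that fewer probes were tested under the strictest filter. The 2 SD rule of the study's methods, which there applied to M of each array, was used here on differences between same-numbered arrays. Over 41000 probes, with no filter on dim probes, 566 were higher and 22 lower in both pairs. The further criteria of the study were not applied.

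The neuronal median of 0.49 was 0.69 with median centring, 0.64 for Cy5 alone, 1.28 for Feature Extraction's ratio, 0.58 in the authors' table, 0.75 with offset 16, 0.41 under the strictest filter, 0.27 without a filter and 0.44 to 0.53 when an array was left out. The microglia median of 0.86 was, in the same order, 1.28, 1.24, 2.12, 1.04 and 1.44, then 0.74 without background correction, 0.17 without a filter and 0.77 to 0.95 when an array was left out. The astrocyte median stayed between 0.01 and 0.14.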
